A study of Homo sapiens with 30 samples.

Results

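Transcript levels of 9 genes of the p53 pathway were examined in HCT116 and SW480 cells, a pair of human colorectal cancer cell lines, after depletion of BRD8 or TIP60. The 9 genes, MDM2, MDM4, PPM1D, CDKN1A, BTG2, CCNG1, PLK2, PLK3 and GDF15, were given by name and matched by symbol, and each symbol belonged to 1 of the 60617 genes listed per library. All 9 passed the filter on low counts in each fit, alongside 15919 genes tested in HCT116, 15277 in SW480 and 17411 over both lines. BRD8 is a bromodomain protein of the TIP60 acetyltransferase complex, and TIP60, whose gene is listed as KAT5, is its catalytic subunit. Within each line the groups were siBRD8-6 and siBRD8-36 (separate siRNAs against BRD8), siTIP60-2 and siTIP60-11 (separate siRNAs against TIP60) and siControl, with 3 libraries per group and 30 in all. Every group, the control included, received 10 nM of siRNA with a lipid reagent and was harvested 48 h later. HCT116 carries wild-type p53 and SW480 a mutant form. Each p53 genotype was represented by 1 line, and the lines were grown in different media, so p53 status cannot be told apart from other differences between them. Nothing in the labels ties the replicates to separate cultures or the lines to 1 sequencing run, so each p-value reflects the spread among these libraries, which may be technical.

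The tumour suppressor p53 is a transcription factor that is kept scarce by MDM2, a ubiquitin ligase that marks it for degradation, and restrained by MDM4, a relative of MDM2 that covers its activation domain. When p53 is stabilised, as after DNA damage, it induces genes that halt the cell cycle, such as CDKN1A, and also genes that switch it off again, such as MDM2 and the phosphatase gene PPM1D, which together form feedback loops. Several of these genes also have p53-independent inputs, among them growth factor signals for BTG2 and PLK3 and the stress factor ATF4 for GDF15.

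Target depletion was checked first. BRD8 stood at 21.3% of control with siBRD8-6 and 15% with siBRD8-36 in HCT116, and at 25% and 21.6% in SW480. KAT5 stood at 7.57% of control with siTIP60-2 and 10% with siTIP60-11 in HCT116, and at 8.06% and 13.7% in SW480. KAT5 was also at 84.9% of control in HCT116 and 76.6% in SW480 with siBRD8-36. Libraries held 13.4 to 18.6 M counts (M, mega) in HCT116 and 7.07 to 11.7 M in SW480, with the SW480 controls the shallowest. Among the libraries, HCT116 control replicate 2 stood apart, with 8.92% of its counts in ribosomal protein genes against 6.5% and 6.79% in the other controls of that line. Without it the same number of the 9 genes was called for each target in HCT116. In SW480 these genes took 7.02% to 8.74% of counts in depleted libraries, against 9.59% to 10% in control. Mitochondrial genes took 1.63% to 2.24% of counts with siBRD8-6, 1.85% to 2.55% with siBRD8-36, 2.15% to 2.53% with siTIP60-2 and 2.73% to 3.07% with siTIP60-11, against 1.57% to 1.66% in control in HCT116. In SW480 they took 2.29% to 2.82%, 2.44% to 2.49%, 2.8% to 2.9% and 4.02% to 4.31% with the same siRNAs, against 2.69% to 2.8% in control. The part of these shares in the results below was not tested. Epithelial markers summed to 3559 to 6987 TPM (transcripts per M, a measure scaled to transcript length) in HCT116 and 3065 to 5292 TPM in SW480, with CEACAM5 at 0 in SW480. The highest were KRT8, KRT18 and KRT19, and 7 of the 11 listed averaged at least 1 TPM in each line. CDX1, LGALS4 and CEACAM5 were below that in both lines, VIL1 in HCT116 and KRT20 in SW480. Of 7 epithelial markers tested, 3 rose with BRD8 depletion and 4 with TIP60 depletion in HCT116, and 6 and 3 rose in SW480, where 2 fell with TIP60 depletion. The shares of all genes called in either direction were 24.4% and 27.9% in HCT116 and 26.9% and 23.6% in SW480. Endothelial markers summed to at most 0.99 TPM with CDH5 at 0, leukocyte markers to at most 28.6 TPM in HCT116 and 6.46 TPM in SW480, where PTPRC was at 0, and fibroblast markers to at most 29.7 TPM and 10.2 TPM. Of 2 fibroblast markers tested in HCT116, COL1A1 rose with BRD8 depletion (1.15 ± 0.0842, adjusted p = 1.15e-05) and TIP60 depletion (0.36 ± 0.086, adjusted p = 0.0415). Of the leukocyte markers, LYZ rose with TIP60 depletion in HCT116 (2.64 ± 0.316, adjusted p = 0.000207), 1 of 2 tested, and CD68 in SW480 (3.43 ± 0.821, adjusted p = 0.0147), the 1 tested. Their part in the results below was not tested. In bulk RNA, fewer cells that express a gene and less of its RNA per cell cannot be told apart.

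Levels below are CPM, counts per M of library size after TMM scaling, and the 3 values of a group are its replicates 1 to 3. A change is the log2 fold change against control ± SE from the quasi-likelihood test of edgeR, for a target the mean of its siRNAs. A gene is said to have risen or fallen with a target when each of its siRNAs shifted it the same way and the larger of their p-values, adjusted over all genes tested, was under 0.05, that adjusted p being the one printed. Since it is adjusted over the larger p-values of all genes, it can exceed the adjusted p of each siRNA alone. All comparisons with control within a line share the same 3 control libraries.

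The promoters are shown for 4 genes on which the results turn: MDM2 for its p53 sites, GDF15 and PLK2 for matches to them, and CDKN1A for comparison as the best known arrest target. Each is the RefSeq window (GRCh38.p14) from 250 bases before to 50 after a transcript start, read 5′ to 3′ on the strand of the gene. Capitals mark matches to the p53 response element, as a single 10-base element or as a 20-base full site, which is a pair of such elements end to end with up to 3 mismatches, and to GGGCGG, the box bound by SP1, on either strand. The MDM2 window is that of the second, intronic start on the plus strand at chr12:68808767-68809066, the GDF15 window lies on the plus strand at chr19:18385908-18386207, the PLK2 window on the minus strand at chr5:58460037-58460336 and the CDKN1A window on the plus strand at chr6:36678464-36678763.
MDM2: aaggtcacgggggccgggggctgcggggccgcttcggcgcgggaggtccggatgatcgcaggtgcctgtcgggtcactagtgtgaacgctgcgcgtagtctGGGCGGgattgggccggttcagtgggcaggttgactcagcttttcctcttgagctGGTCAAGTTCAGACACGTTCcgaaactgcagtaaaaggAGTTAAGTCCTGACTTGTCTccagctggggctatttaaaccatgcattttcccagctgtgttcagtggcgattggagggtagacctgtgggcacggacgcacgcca
GDF15: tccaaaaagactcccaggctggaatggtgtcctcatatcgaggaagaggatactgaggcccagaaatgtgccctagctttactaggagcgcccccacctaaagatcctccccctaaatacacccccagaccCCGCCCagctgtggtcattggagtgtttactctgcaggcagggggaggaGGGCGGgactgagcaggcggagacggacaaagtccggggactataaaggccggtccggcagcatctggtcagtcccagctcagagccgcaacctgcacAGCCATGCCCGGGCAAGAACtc
PLK2: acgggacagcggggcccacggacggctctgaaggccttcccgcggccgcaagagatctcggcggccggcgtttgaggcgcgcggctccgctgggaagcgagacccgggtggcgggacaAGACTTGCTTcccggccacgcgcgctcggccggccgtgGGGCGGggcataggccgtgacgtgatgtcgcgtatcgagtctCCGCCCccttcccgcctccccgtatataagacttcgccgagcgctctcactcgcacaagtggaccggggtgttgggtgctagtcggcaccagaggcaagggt
CDKN1A: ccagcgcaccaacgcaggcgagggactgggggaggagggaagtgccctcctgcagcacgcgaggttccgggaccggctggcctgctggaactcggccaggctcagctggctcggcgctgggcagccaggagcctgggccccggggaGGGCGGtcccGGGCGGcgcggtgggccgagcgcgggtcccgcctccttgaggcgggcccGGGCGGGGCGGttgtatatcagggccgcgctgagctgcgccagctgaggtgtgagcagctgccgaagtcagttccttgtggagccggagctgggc
In the MDM2 window the full-site matches are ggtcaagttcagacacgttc at positions -94 to -75 from the start and agttaagtcctgacttgtct at positions -56 to -37. The GDF15 window holds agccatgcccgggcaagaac at positions 29 to 48 after the start, and the PLK2 window the 10-base element agacttgctt at positions -132 to -123. The CDKN1A window held 4 GGGCGG boxes, of which the last pair share bases, and no match to the p53 element in these 300 bases; its known p53 sites lie further upstream. A full-site match was found for 2 of the 9 genes, in 2 of their 10 windows, against 5.21% of 33979 promoter windows. A 10-base element was found for 1 gene, in 1 of 10 windows, against 6.66%. GGGCGG was found for 8 of 9 genes, in 9 of 10 windows, against 44.8%. The 10 windows held from 52.7% G and C bases (MDM4) to 74.7% (the other MDM2 window), and the windows compared were not matched for this. Its part in the GGGCGG share was not tested. The motifs were chosen with the MDM2 sites known, so the full-site match of MDM2 was known beforehand. All of these are matches of letters, and binding was not measured.

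The first question was how the genes compare between the lines without depletion. In control cells, 8 of the 9 genes were higher in HCT116 than in SW480 and none was lower, where 41.5% of all genes tested were higher and 37.0% lower (78.5% in all). The median of the 9 differences was 1.25 (log2), against 0.08 over all genes. The largest differences were those of PPM1D (2.46 ± 0.101, adjusted p = 2.65e-21), BTG2 (2.27 ± 0.096, adjusted p = 6.14e-21) and MDM2 (2.03 ± 0.0976, adjusted p = 3.61e-18). MDM2 was 160.2, 127 and 152 CPM in HCT116 control cells, against 37.4, 33.3 and 40.5 CPM in SW480 control cells, and the lines did not overlap. PPM1D was 52.9, 50.6 and 54.7 CPM in HCT116 control cells, against 9.96, 9.61 and 10.2 CPM in SW480 control cells. CDKN1A differed less, by 0.98 ± 0.0651 (adjusted p = 1.78e-15), as did PLK2 (0.98 ± 0.0631, adjusted p = 7.48e-16), PLK3 (1.07 ± 0.0957, adjusted p = 3.94e-12), MDM4 (1.25 ± 0.0932, adjusted p = 3.75e-14) and GDF15 (1.3 ± 0.0979, adjusted p = 1.72e-12).

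CCNG1 was the exception, at 156, 207 and 172 CPM in HCT116 control cells against 192, 188 and 194 CPM in SW480 control cells (-0.06 ± 0.0777, adjusted p = 0.514). Its difference was 0.06 on the log2(TPM + 1) scale, and it was called lower with a stricter filter on counts (-0.21), without HCT116 control replicate 2 (-0.19), the library with the high ribosomal protein share, and without SW480 siTIP60-11 replicate 1 (-0.17). Per transcript length, GDF15 was the most abundant of the 9 in HCT116 control cells at 405 ± 10.8 TPM (SD, n = 3), followed by CDKN1A (192 ± 4.9 TPM), CCNG1 (147 ± 9.8 TPM), MDM2 (96.8 ± 8.77 TPM) and PLK2 (61.2 ± 10.4 TPM). BTG2, MDM4, PPM1D and PLK3 lay between 24.9 and 28.6 TPM with overlapping spread. In SW480 control cells CCNG1 (141 ± 5.31 TPM) and GDF15 (136 ± 2.6 TPM) led within their spread, and PPM1D was lowest at 4.1 ± 0.524 TPM. RSEM's estimate of transcript length for MDM4 ranged over the libraries from 2493 to 5084 bases, which makes TPM less steady than CPM for such genes.

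**Figure D1:**
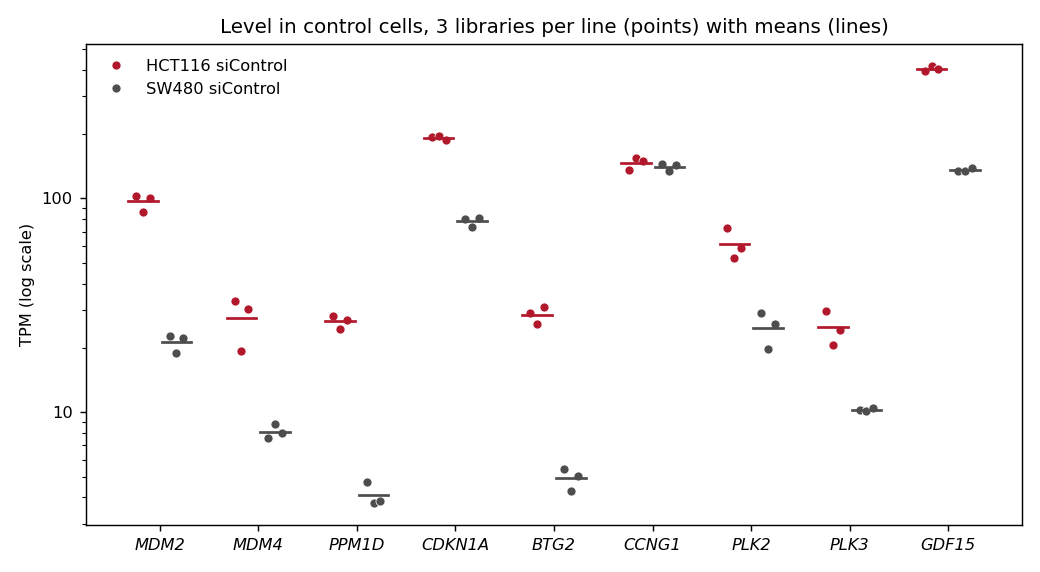
TPM (log axis) of the 9 genes in the 3 siControl libraries of HCT116 (red) and of SW480 (grey); points are libraries and horizontal lines are means. The cell lines are separated for 8 genes and overlap for CCNG1, at 147 and 141 TPM on average.

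After BRD8 depletion in HCT116, 4 of the 9 genes rose (PLK2, BTG2, CDKN1A and MDM2), 2 fell (GDF15 and MDM4) and 3 were not called, where 24.4% of all genes were called in either direction. The median change of the 9 was 0.18, against -0.02 over all genes. After TIP60 depletion in HCT116, 4 rose (PLK2, CDKN1A, BTG2 and PLK3), MDM4 alone fell and 4 were not called, against 27.9% of all genes called, and the medians were 0.06 and -0.03. After BRD8 depletion in SW480, 2 rose (BTG2 and PLK2) and 4 fell (GDF15, PLK3, MDM4 and CCNG1), against 26.9% of all genes called, with medians of -0.43 and 0. After TIP60 depletion in SW480, BTG2 rose, GDF15 and MDM2 fell and 6 were not called, against 23.6% of all genes called, with medians of -0.18 and 0.01. With single siRNAs in HCT116, 5 genes were higher and 4 lower with siBRD8-6 (50.5% of all genes called), 6 and 2 with siBRD8-36 (58.3%), 7 and 1 with siTIP60-2 (49.8%) and 4 and 4 with siTIP60-11 (53.6%). In SW480, 2 were higher and 5 lower with siBRD8-6 (52.1%), 2 and 6 with siBRD8-36 (56.8%), 2 and 3 with siTIP60-2 (49.5%) and 2 and 4 with siTIP60-11 (47.6%). The difference between lines was tested directly, as the change in HCT116 minus the change in SW480. It was positive and past the threshold for 6 of the 9 genes for each target and negative past it for none, where 12.5% of all genes were higher and 21.9% lower (34.4% in all) for BRD8 and 13.1% and 18.0% (31.1% in all) for TIP60. The median difference of the 9 genes was 0.43 for BRD8, against -0.10 over all genes, and 0.59 for TIP60, against -0.06. This test takes the mean of a target's siRNAs and does not require them to agree. Among the genes past the threshold, they had opposite signs in HCT116 for PPM1D with BRD8 and for MDM2 and GDF15 with TIP60. In SW480 they did so for CDKN1A with BRD8.

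**Figure D2:**
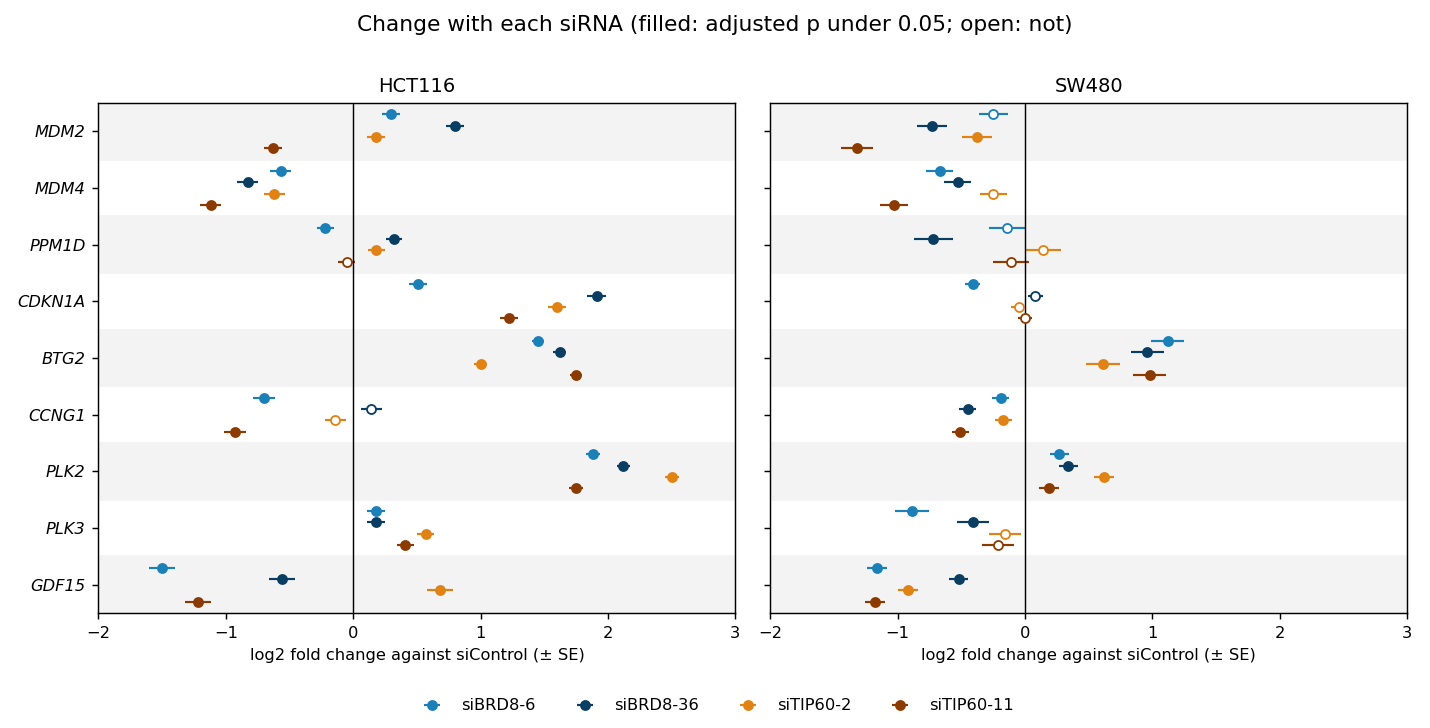
Log2 fold change against siControl (± SE) of the 9 genes with each of the 4 siRNAs in HCT116 (left) and SW480 (right), filled where the adjusted p was under 0.05. PLK2, BTG2 and CDKN1A lie right of 0 with all 4 siRNAs in HCT116, and in SW480 CDKN1A lies between -0.41 and 0.08.

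Of the arrest genes, CDKN1A encodes p21, the inhibitor of cyclin-dependent kinases through which p53 halts the cell cycle in G1 (ENSG00000124762, GRCh38 chromosome 6, 36676460 to 36687339, plus strand, protein-coding). In HCT116 it was 357, 399 and 379 CPM with siBRD8-6, 1009, 945 and 1141 CPM with siBRD8-36, 765, 847 and 811 CPM with siTIP60-2 and 607, 623 and 590.3 CPM with siTIP60-11, against 245, 284 and 248 CPM in control. All 12 depleted libraries lay above the 3 controls, and those of siBRD8-36 were the highest. CDKN1A rose by 1.21 ± 0.0641 with BRD8 depletion (adjusted p = 1.59e-05) and by 1.41 ± 0.0647 with TIP60 depletion (adjusted p = 2.32e-10), which are 2.32-fold and 2.65-fold, and by 1.3 and 1.49 without HCT116 control replicate 2. In SW480 it was 103, 101 and 108 CPM with siBRD8-6, 153, 144 and 144 CPM with siBRD8-36, 134, 125 and 137 CPM with siTIP60-2 and 135, 128 and 146 CPM with siTIP60-11, against 136, 134 and 137 CPM in control. Libraries of siBRD8-6 lay below the controls and those of siBRD8-36 above them, while those of both TIP60 siRNAs overlapped with them. With siBRD8-6 the change was -0.41 ± 0.0591 (adjusted p = 1.75e-06), and with siBRD8-36 it was 0.08 ± 0.0581 (adjusted p = 0.235), so that CDKN1A was not called for BRD8 (mean -0.16 ± 0.0507). With TIP60 depletion the mean change was -0.03 ± 0.0508. On the log2(TPM + 1) scale, called the TPM scale below and tested with limma, both means were positive, at 0.10 and 0.21. The median over all genes in SW480 on that scale was 0.22 for BRD8 and 0.18 for TIP60. The BRD8 mean stayed negative with RLE and upper-quartile scaling, while the TIP60 mean turned positive with the second of these. The response in HCT116 exceeded that in SW480 by 1.31 ± 0.0793 for BRD8 (adjusted p = 1.13e-14) and by 1.39 ± 0.0792 for TIP60 (adjusted p = 3.57e-15).

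PLK2, a polo-like kinase of centriole duplication that p53 and stress signals induce, had the largest change of the 9 genes in HCT116 (ENSG00000145632, chromosome 5, 58453982 to 58460260, minus strand, protein-coding). It was 309.8, 295 and 297 CPM with siBRD8-6, 382, 331 and 381 CPM with siBRD8-36, 459, 465 and 462 CPM with siTIP60-2 and 273, 272 and 266 CPM with siTIP60-11, against 84.6, 75.3 and 78.7 CPM in HCT116 control. The lowest depleted library, at 266 CPM, lay far above the highest control at 84.6 CPM. PLK2 rose by 2.00 ± 0.0494 with BRD8 depletion (adjusted p = 5.43e-14) and 2.12 ± 0.0497 with TIP60 depletion (adjusted p = 3.82e-14). SW480 libraries held 52.2, 49.4 and 52 CPM with siBRD8-6, 52.4, 54.6 and 54.5 CPM with siBRD8-36, 63.5, 60.6 and 68.8 CPM with siTIP60-2 and 43, 51.3 and 48.9 CPM with siTIP60-11, against 42.1, 42.9 and 39.7 CPM in control. Each of these 12 libraries was above the highest SW480 control, the nearest at 43 CPM, but none reached the HCT116 control mean of 79.5 ± 4.71 CPM. PLK2 rose by 0.31 ± 0.0671 with BRD8 depletion in SW480 (adjusted p = 0.00735). With TIP60 depletion the change was 0.40 ± 0.0671 and missed the threshold (adjusted p = 0.0732, with 1.35e-07 for siTIP60-2 and 0.041 for siTIP60-11 alone), but was called with upper-quartile scaling (adjusted p = 0.0182), with all 30 libraries in 1 fit (adjusted p = 0.0119), on the TPM scale (adjusted p = 0.0124) and without siTIP60-11 replicate 1 (0.44). The difference between the lines was 1.63 ± 0.0763 for BRD8 (adjusted p = 4.12e-17) and 1.68 ± 0.0763 for TIP60 (adjusted p = 9.9e-18).

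BTG2, an antiproliferative adaptor of the mRNA deadenylation machinery, rose with both targets in both lines (ENSG00000159388, chromosome 1, 203305491 to 203309602, plus strand, protein-coding). HCT116 libraries held 144, 147 and 144 CPM with siBRD8-6, 163, 162 and 179.6 CPM with siBRD8-36, 109.7, 109 and 102 CPM with siTIP60-2 and 174, 178 and 175 CPM with siTIP60-11, against 51.1, 50.6 and 54 CPM in control. Every depleted library had at least 102 CPM and no control exceeded 54 CPM. The gene rose by 1.53 ± 0.0445 with BRD8 depletion (adjusted p = 6.02e-13) and by 1.38 ± 0.0443 with TIP60 depletion (adjusted p = 2.69e-11). The SW480 libraries had 23.7, 27.6 and 22.5 CPM with siBRD8-6, 21, 25.6 and 19.4 CPM with siBRD8-36, 16.3, 17.8 and 16.9 CPM with siTIP60-2 and 23.6, 18.8 and 23.1 CPM with siTIP60-11, against 12.2, 10.2 and 10.8 CPM in control. The groups again did not overlap with control, at a level below that of any HCT116 library. The rise in SW480 was 1.04 ± 0.116 with BRD8 depletion (adjusted p = 1.46e-06) and 0.79 ± 0.118 with TIP60 depletion (adjusted p = 0.00099). The rise in HCT116 was the larger by 0.43 ± 0.119 for BRD8 (adjusted p = 0.00515) and by 0.54 ± 0.121 for TIP60 (adjusted p = 0.000666).

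PLK3, another polo-like kinase, known as an immediate-early gene and stress kinase, rose with TIP60 depletion in HCT116 and fell with BRD8 depletion in SW480 (ENSG00000173846, chromosome 1, 44800225 to 44805990, plus strand, protein-coding). In HCT116 it was 37.8, 37.3 and 35 CPM with siBRD8-6, 38.2, 34.4 and 40.8 CPM with siBRD8-36, 47.4, 50 and 48.2 CPM with siTIP60-2 and 46.1, 42.5 and 38.5 CPM with siTIP60-11, against 34.2, 29 and 31.7 CPM in control. Libraries of both TIP60 siRNAs and of siBRD8-6 lay above the controls, and the lowest of siBRD8-36, at 34.4 CPM, was just above the highest control at 34.2 CPM. PLK3 rose by 0.49 ± 0.0593 with TIP60 depletion (adjusted p = 0.000115). Each BRD8 siRNA alone also raised PLK3, by 0.18 ± 0.0683 (adjusted p = 0.0387 with siBRD8-6 and 0.0349 with siBRD8-36). For the target the change of 0.18 ± 0.0596 was not called (adjusted p = 0.0739), except without control replicate 1 (0.23). In SW480 it was 9.44, 6.65 and 9.53 CPM with siBRD8-6, 12.5, 12.3 and 11 CPM with siBRD8-36, 15.1, 15.2 and 12 CPM with siTIP60-2 and 13.7, 13.9 and 13.1 CPM with siTIP60-11, against 15.4, 15.4 and 15.9 CPM in control. All depleted libraries were below the controls, the nearest at 15.2 CPM with siTIP60-2. The change with BRD8 depletion in SW480 was -0.65 ± 0.112 (adjusted p = 0.0143), and with TIP60 depletion -0.18 ± 0.109 (adjusted p = 0.502). The BRD8 call ended without siBRD8-36 replicate 3 (-0.62), with DESeq2 (adjusted p = 0.0518) and on the TPM scale (-0.24). The lines differed by 0.76 ± 0.121 for BRD8 (adjusted p = 7.17e-06) and 0.63 ± 0.119 for TIP60 (adjusted p = 8.18e-05), and on the TPM scale neither was called (adjusted p = 0.116 and 0.0756).

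CCNG1 encodes cyclin G1, a p53 target that brings protein phosphatase 2A to MDM2 (ENSG00000113328, chromosome 5, 163437569 to 163446151, plus strand, protein-coding). The siRNAs of a target disagreed in HCT116, where it was 112, 112 and 115 CPM with siBRD8-6 and 215, 193 and 217 CPM with siBRD8-36, and 156, 173 and 170 CPM with siTIP60-2 and 95.9, 98.5 and 89.7 CPM with siTIP60-11, against 156, 207 and 172 CPM in control. Libraries of siBRD8-6 and siTIP60-11 lay below every control, and the other siRNAs overlapped with the controls. It was not called for either target in HCT116 (siBRD8-6 -0.70 ± 0.0846, siBRD8-36 0.14 ± 0.083, siTIP60-2 -0.14 ± 0.0834, siTIP60-11 -0.93 ± 0.0855), although for TIP60 it was called without control replicate 1 (-0.63). SW480 libraries held 179.8, 179 and 154 CPM with siBRD8-6, 139, 147 and 142 CPM with siBRD8-36, 166, 184 and 165 CPM with siTIP60-2 and 147, 127 and 131 CPM with siTIP60-11, against 192, 188 and 194 CPM in control. All 12 depleted libraries lay below the controls there. CCNG1 fell with BRD8 depletion (-0.32 ± 0.0567, adjusted p = 0.0288), a call lost without any 1 of the SW480 controls (-0.31 to -0.34) or siBRD8-6 replicate 3 (-0.29), with upper-quartile scaling (adjusted p = 0.0633), with all 30 libraries in 1 fit (adjusted p = 0.213) and on the TPM scale (-0.11). With TIP60 depletion the change was -0.34 ± 0.0568 (adjusted p = 0.0647, with 0.0347 for siTIP60-2 and 3.67e-07 for siTIP60-11 alone), called with RLE scaling (adjusted p = 0.0475), without siTIP60-2 replicate 2 (-0.37) and without replicate 3 of siBRD8-6 or of siBRD8-36 (-0.34 each). The change did not pass the test of a difference between lines for BRD8 (-0.02 ± 0.0952, adjusted p = 0.922) or TIP60 (-0.24 ± 0.0954, adjusted p = 0.0585). The BRD8 value changed sign between alternatives, and the TIP60 one was called without HCT116 control replicate 1 (-0.32), without SW480 siBRD8-6 replicate 3 (-0.24) and on the TPM scale (-0.33).

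**Figure D3:**
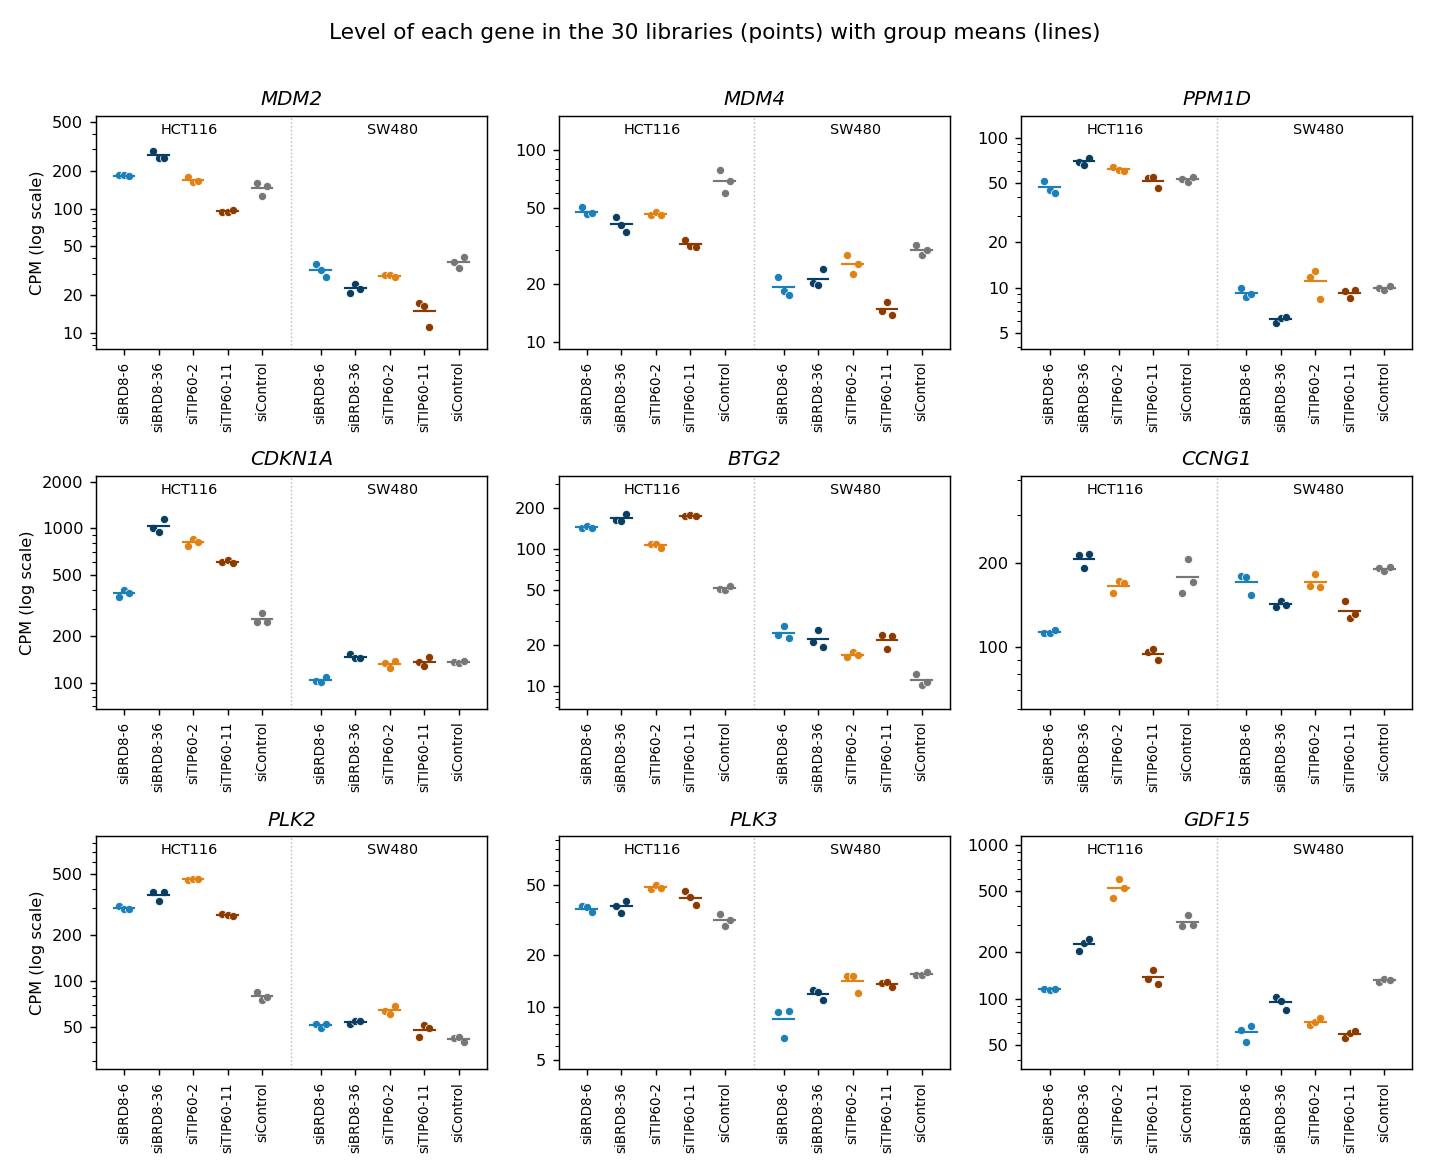
CPM (log axes that differ between panels) of the 9 genes in each of the 30 libraries (points), by siRNA and line, with group means (bars). CDKN1A and PLK2 rise above control with all 4 siRNAs in HCT116 (1032 and 365 CPM on average with siBRD8-36, against 259 and 79.5 in control), while GDF15 with siTIP60-2 (524 CPM) and with siTIP60-11 (137 CPM) lie on opposite sides of the control (317 CPM).

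Of the feedback genes, MDM2 rose with BRD8 depletion in HCT116 and fell with TIP60 depletion in SW480 (ENSG00000135679, chromosome 12, 68808176 to 68850686, plus strand, protein-coding). HCT116 libraries held 187, 185 and 182 CPM with siBRD8-6, 293, 255 and 257 CPM with siBRD8-36, 179, 165 and 167 CPM with siTIP60-2 and 93.1, 94.3 and 98.3 CPM with siTIP60-11, against 160.2, 127 and 152 CPM in control. Libraries of siBRD8-6, siBRD8-36 and siTIP60-2 lay above the controls and those of siTIP60-11 below them. MDM2 rose by 0.55 ± 0.0624 with BRD8 depletion (adjusted p = 0.00333, and 0.0567 with limma on the TPM scale) and was not called for TIP60, whose siRNAs gave 0.18 ± 0.0708 (siTIP60-2, adjusted p = 0.045) and -0.63 ± 0.0724 (siTIP60-11, adjusted p = 5.92e-07). The SW480 libraries had 35.8, 31.9 and 28.3 CPM with siBRD8-6, 21, 24.9 and 22.5 CPM with siBRD8-36, 29, 29.2 and 27.9 CPM with siTIP60-2 and 17.4, 16.3 and 11.1 CPM with siTIP60-11, against 37.4, 33.3 and 40.5 CPM in control. Libraries of siBRD8-6 overlapped with the controls, and the other depleted libraries lay below them. The change with TIP60 depletion in SW480 was -0.85 ± 0.104 (adjusted p = 0.0189), a call lost without control replicate 1 (-0.85) or 3 (-0.79), without siTIP60-2 replicate 3 (-0.84) and on the TPM scale (adjusted p = 0.418). With BRD8 depletion the change of -0.49 ± 0.101 was not called (adjusted p = 0.13). The lines differed by 0.97 ± 0.121 for BRD8 (adjusted p = 1.86e-07) and by 0.59 ± 0.124 for TIP60 (adjusted p = 0.000451, and 0.232 on the TPM scale). AC025423.2, annotated on the same strand and overlapping MDM2, held 3.79% to 9.62% as many counts as MDM2, and the gene of carboxypeptidase M on the other strand 0.587% to 12.4%, so reads could be split between them.

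MDM4 was lower than control in nearly all depleted libraries of both lines (ENSG00000198625, chromosome 1, 204516379 to 204558120, plus strand, protein-coding). In HCT116 it was 50.2, 46.1 and 46.8 CPM with siBRD8-6, 45, 40.8 and 37.4 CPM with siBRD8-36, 45.9, 47.6 and 45.7 CPM with siTIP60-2 and 33.9, 31.6 and 31.1 CPM with siTIP60-11, against 78.9, 59.8 and 68.8 CPM in control. No depleted library of HCT116 reached the lowest control. It changed by -0.70 ± 0.0688 with BRD8 depletion (adjusted p = 2.01e-05, and 0.0989 with limma on the TPM scale) and by -0.87 ± 0.0693 with TIP60 depletion (adjusted p = 7.35e-06). In SW480 it was 21.8, 18.5 and 17.6 CPM with siBRD8-6, 20.2, 19.9 and 23.9 CPM with siBRD8-36, 28.5, 22.6 and 25.4 CPM with siTIP60-2 and 14.5, 16.2 and 13.8 CPM with siTIP60-11, against 31.9, 28.2 and 30.1 CPM in control. Replicate 1 of siTIP60-2, at 28.5 CPM, was the depleted library within the range of the controls. MDM4 fell with BRD8 depletion in SW480 (-0.60 ± 0.0921, adjusted p = 0.000311, and 0.483 on the TPM scale). With TIP60 depletion its change of -0.64 ± 0.0928 was not called (adjusted p = 0.0921), except without that library (-0.68). The difference between the lines did not pass the test for BRD8 (-0.17 ± 0.117, adjusted p = 0.282) or TIP60 (-0.27 ± 0.118, adjusted p = 0.084). For TIP60 it was called without HCT116 control replicate 2 (-0.35), without SW480 siTIP60-2 replicate 2 (-0.31) and on the TPM scale (-0.60, adjusted p = 0.0203).

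PPM1D encodes WIP1, the phosphatase that dephosphorylates p53 and the kinases that activate it (ENSG00000170836, chromosome 17, 60600183 to 60666280, plus strand, protein-coding). It was called for neither target in either line. HCT116 libraries held 51.5, 45 and 43 CPM with siBRD8-6, 69.1, 66 and 73.2 CPM with siBRD8-36, 63.2, 60.6 and 60.3 CPM with siTIP60-2 and 53.4, 54.5 and 46.3 CPM with siTIP60-11, against 52.9, 50.6 and 54.7 CPM in control. The siRNAs of BRD8 lay on opposite sides of control (siBRD8-6 -0.22 ± 0.0667, adjusted p = 0.0107; siBRD8-36 0.32 ± 0.0652, adjusted p = 0.000362). SW480 libraries held 9.91, 8.61 and 9.04 CPM with siBRD8-6, 5.84, 6.22 and 6.39 CPM with siBRD8-36, 11.7, 12.9 and 8.36 CPM with siTIP60-2 and 9.46, 8.52 and 9.68 CPM with siTIP60-11, against 9.96, 9.61 and 10.2 CPM in control. The libraries of siBRD8-36 stood apart as the lowest there (-0.72 ± 0.153, adjusted p = 0.000224), on 57 to 65 counts each. The response to BRD8 depletion in HCT116 exceeded that in SW480 by 0.41 ± 0.135 (adjusted p = 0.0164, and 0.389 on the TPM scale), and for TIP60 the difference was 0.01 ± 0.131 (adjusted p = 1).

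**Figure D4:**
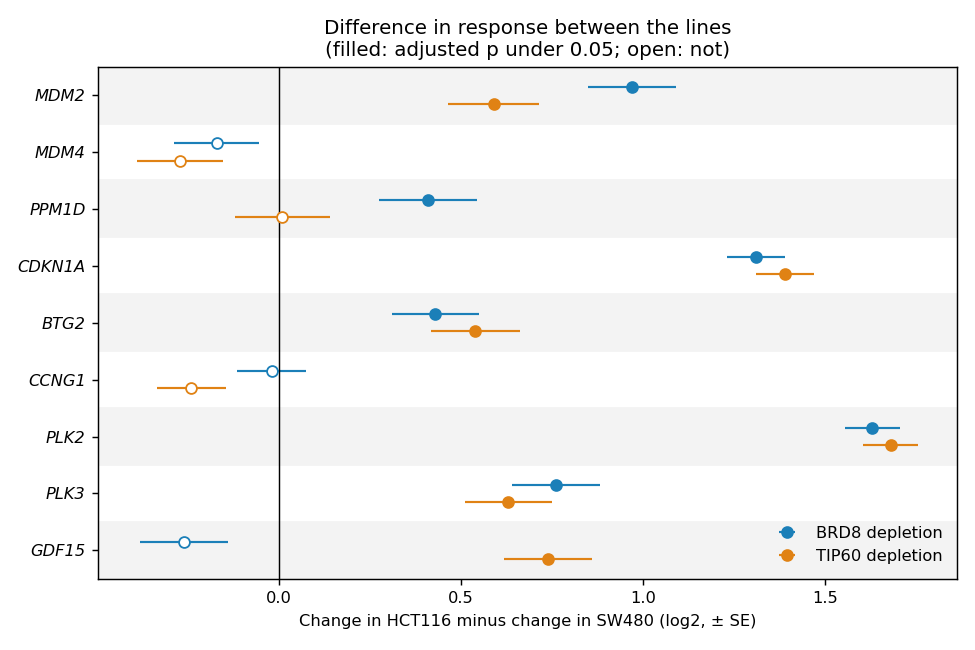
Change in HCT116 minus change in SW480 (log2, ± SE) of the 9 genes for BRD8 depletion (blue) and TIP60 depletion (orange), filled where the adjusted p was under 0.05. PLK2 and CDKN1A lie furthest to the right, between 1.31 and 1.68, and MDM4 and CCNG1 lie at or left of 0 with open symbols.

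GDF15, a secreted stress cytokine of the TGF-beta family induced by p53 and by ATF4, was lower than control with 3 of the 4 siRNAs in HCT116 and with all 4 in SW480 (ENSG00000130513, chromosome 19, 18374731 to 18389176, plus strand, protein-coding). In HCT116 it was 116, 114 and 115 CPM with siBRD8-6, 204, 230.4 and 245 CPM with siBRD8-36, 453, 598 and 522 CPM with siTIP60-2 and 135, 153 and 124 CPM with siTIP60-11, against 298, 352 and 300.4 CPM in control. No group overlapped with control: both BRD8 siRNAs and siTIP60-11 lay below it and siTIP60-2 above it. GDF15 fell with BRD8 depletion (-1.03 ± 0.0853, adjusted p = 0.000531). It was not called for TIP60, whose siRNAs gave 0.68 ± 0.1 (siTIP60-2, adjusted p = 3.78e-05) and -1.22 ± 0.103 (siTIP60-11, adjusted p = 8.72e-08). The SW480 libraries had 62.1, 52.1 and 66.4 CPM with siBRD8-6, 103, 96.1 and 84.5 CPM with siBRD8-36, 66.8, 70.2 and 74.4 CPM with siTIP60-2 and 55.1, 60 and 61.6 CPM with siTIP60-11, against 129, 135 and 133 CPM in control. All 12 depleted libraries of SW480 lay below the controls, siBRD8-36 being nearest. The changes there were -0.84 ± 0.0656 for BRD8 (adjusted p = 5.07e-06) and -1.05 ± 0.066 for TIP60 (adjusted p = 9.56e-10). The line difference was called for TIP60 (0.74 ± 0.121, adjusted p = 2.39e-05), where the siRNAs disagreed in HCT116, and not for BRD8 (-0.26 ± 0.12, adjusted p = 0.099, and called on the TPM scale at -0.45, adjusted p = 0.00105).

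The 9 genes ranked the groups differently. CDKN1A was highest with siBRD8-36 in HCT116, then siTIP60-2, siTIP60-11 and siBRD8-6, and the ranges of neighbouring groups overlapped only among the control, siTIP60-11 and siTIP60-2 groups of SW480. PLK2, PLK3 and GDF15 were highest with siTIP60-2, BTG2 with siTIP60-11 within the range of siBRD8-36, and MDM2, PPM1D and CCNG1 with siBRD8-36, CCNG1 there overlapping with the SW480 controls. MDM4 was highest in HCT116 control cells. Over the 10 group means, with the mean of each line taken off, CDKN1A and PLK2 had a correlation of 0.79, MDM2 and CCNG1 of 0.75, BTG2 and PLK2 of 0.70 and MDM4 and BTG2 of -0.86. MDM2 and CDKN1A had one of 0.21. These are descriptions over groups that share controls and libraries.

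The siRNAs of each target were compared with each other. In HCT116, siBRD8-36 gave higher levels than siBRD8-6 for 7 of the 9 genes and a lower one for MDM4, where 56.7% of all genes were called. The largest differences were those of CDKN1A (1.40 ± 0.0707, adjusted p = 4.61e-12), GDF15 (0.93 ± 0.104, adjusted p = 1.47e-06) and CCNG1 (0.84 ± 0.0844, adjusted p = 1.52e-07). The MDM4 difference (-0.26 ± 0.0834, adjusted p = 0.0121) was lost without siBRD8-6 replicate 1 (-0.23) or siBRD8-36 replicate 3 (-0.18) and was 0.05 on the TPM scale. In SW480, 3 genes were higher and 3 lower with siBRD8-36 than with siBRD8-6, against 52.8% of all genes called, with CDKN1A (0.49 ± 0.058, adjusted p = 5.04e-08) and GDF15 (0.64 ± 0.0787, adjusted p = 1e-07) again higher and MDM2 (-0.49 ± 0.118, adjusted p = 0.00125) lower. The MDM2 difference was not called on the TPM scale (-0.3, adjusted p = 0.123). With siTIP60-11, 8 of the 9 genes were lower than with siTIP60-2 in HCT116 and BTG2 was higher (0.75 ± 0.0466, adjusted p = 2.54e-10), against 46.0% of all genes called. GDF15 differed most (-1.90 ± 0.104, adjusted p = 9.79e-10), and the PLK3 difference (-0.17 ± 0.0654, adjusted p = 0.0451) was lost with DESeq2 (adjusted p = 0.0628) and without any 1 of the siTIP60-2 libraries or siTIP60-11 replicate 2 or 3 (-0.12 to -0.19). It was also lost with upper-quartile scaling, without a filter, with all libraries in 1 fit and on the TPM scale. PPM1D (-0.23 ± 0.0657, adjusted p = 0.00869) was lost without siTIP60-11 replicate 3 (-0.17). In SW480, 5 were lower and 1 higher with siTIP60-11, against 45.3% of all genes called, led by MDM2 (-0.94 ± 0.127, adjusted p = 1.74e-06) and MDM4 (-0.78 ± 0.11, adjusted p = 1.61e-06). There GDF15 (-0.25 ± 0.0808) was lost without siTIP60-2 replicate 3 or siTIP60-11 replicate 1 (-0.21 each), and BTG2 (0.36 ± 0.117) without siTIP60-11 replicate 1 (0.31) or 3 (0.32). GDF15 was also lost with all 30 libraries in 1 fit (adjusted p = 0.0711), and BTG2 on the TPM scale (0.18, adjusted p = 0.318).

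Between the targets, the mean of the BRD8 siRNAs was higher than that of the TIP60 siRNAs for 4 genes and lower for 4 in HCT116, where 61.8% of all genes were called. MDM2 was higher with BRD8 depletion (0.77 ± 0.0503, adjusted p = 1.44e-10) and GDF15 lower (-0.76 ± 0.0726, adjusted p = 2.1e-07). PLK2 (-0.12 ± 0.0356, adjusted p = 0.00511), CDKN1A (-0.19 ± 0.0491, adjusted p = 0.00199) and BTG2 (0.16 ± 0.0327, adjusted p = 0.000361) differed by little. The PLK2 difference was not called on the TPM scale (adjusted p = 0.102). MDM4 (0.16 ± 0.0597, adjusted p = 0.0231) was lost without replicate 1 of siBRD8-6 (0.14), siBRD8-36 (0.12) or siTIP60-2 (0.15), or without siTIP60-11 replicate 2 (0.16). In SW480, 3 were higher and 3 lower with BRD8 depletion, against 59.9% of all genes called, with MDM2 again higher (0.36 ± 0.0868, adjusted p = 0.000962) and PLK3 (-0.47 ± 0.0903, adjusted p = 6.44e-05) and PPM1D (-0.44 ± 0.101, adjusted p = 0.000465) lower. The PLK3 difference was not called on the TPM scale (-0.29, adjusted p = 0.0604).

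Other targets of p53 were read beside the 9 genes. Of all genes tested, BRD8 depletion called 24.4% in HCT116 and 26.9% in SW480 in either direction, and TIP60 depletion 27.9% and 23.6%. Of 21 tested genes of p53-dependent apoptosis, 4 rose and 4 fell after BRD8 depletion in HCT116 (median change 0.19, against -0.02 over all genes), and 10 rose and 1 fell after TIP60 depletion (0.22, against -0.03). AEN, a nuclease of apoptotic DNA, was 71.3 ± 2.66 CPM with siBRD8-6 and 151 ± 12.6 CPM with siBRD8-36, against 53.7 ± 3.59 CPM in HCT116 control (SD, n = 3). It rose by 0.89 ± 0.0513 with BRD8 depletion (adjusted p = 5.93e-05) and by 0.81 ± 0.0512 with TIP60 depletion (adjusted p = 6.38e-09). In SW480, 3 rose and 6 fell with BRD8 depletion and 4 rose and 4 fell with TIP60 depletion. ZMAT3, an RNA-binding p53 target, rose there with BRD8 depletion (1.00 ± 0.0831, adjusted p = 1e-05), and PMAIP1, the gene of the BH3 protein NOXA, fell with TIP60 depletion (-0.93 ± 0.0621, adjusted p = 1.47e-09). TP53I3, which had the largest called change of this list in HCT116 (1.21 ± 0.0734 for BRD8, 1.38 ± 0.0723 for TIP60), also rose in SW480 with TIP60 depletion (0.82 ± 0.107, adjusted p = 0.00107). AEN in SW480 was 66.1 ± 3.15 CPM with siBRD8-6 and 129 ± 3.49 CPM with siBRD8-36, against 98.2 ± 4.94 CPM in control. Of 25 tested repair and metabolic targets, 7 rose and 1 fell with BRD8 depletion and 8 rose and 2 fell with TIP60 depletion in HCT116 (median 0.25 for each). SESN1, a stress-induced inhibitor of mTORC1 signalling, rose to 29.1 ± 1.68 CPM with siBRD8-6 and 63.2 ± 4.51 CPM with siBRD8-36, against 20.7 ± 0.419 CPM in control (0.99 ± 0.0585, adjusted p = 3.52e-05). In SW480, 4 rose and 4 fell with BRD8 depletion and 4 rose and 3 fell with TIP60 depletion. In control cells, 14 of 22 apoptosis targets were higher in HCT116 than in SW480 and 5 lower, and 16 of 26 repair and metabolic targets were higher and 8 lower. Over all genes, 41.5% were higher and 37.0% lower there.

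Among regulators of p53, 1 of 27 rose and 4 fell with BRD8 depletion in HCT116, the fallen ones including BRD8 itself and the checkpoint kinase genes CHEK1 (-0.64 ± 0.0491, adjusted p = 6.57e-05) and CHEK2 (-0.65 ± 0.0559, adjusted p = 1.32e-05). With TIP60 depletion in HCT116, 4 rose and 7 fell, KAT5 included, and CDKN2A, which also encodes ARF, an inhibitor of MDM2, changed by -0.44 ± 0.0646 (adjusted p = 0.00112). In SW480, 4 rose and 6 fell with BRD8 depletion, BRD8 included, and HIPK2, a kinase of p53, changed by 1.02 ± 0.15 (adjusted p = 0.000404). There 2 rose and 7 fell with TIP60 depletion, KAT5 included. In each count the fall of the targeted gene is the depletion itself. Of the cyclins, kinases and PCNA that p21 binds, none of 11 tested rose and 4 fell with BRD8 depletion in HCT116. CDK1, the mitotic kinase, was 88.3 ± 3.08 CPM with siBRD8-6 and 22.8 ± 1.72 CPM with siBRD8-36, against 121 ± 1.27 CPM in control (-1.48 ± 0.0486, adjusted p = 1.84e-06). It also fell in SW480, to 46.5 ± 7.84 CPM with siBRD8-6 and 13.5 ± 0.582 CPM with siBRD8-36, against 91.5 ± 1.9 CPM in control (-1.90 ± 0.0756, adjusted p = 3.26e-10). A link between the levels of CDKN1A and CDK1 was not tested. Of these partners 3 rose and 3 fell with TIP60 depletion in HCT116, 1 rose and 6 of 12 fell with BRD8 depletion in SW480, and 1 rose and 4 fell with TIP60 depletion there. For comparison with both lists, 24.4% and 27.9% of all genes were called for BRD8 and TIP60 in HCT116, and 26.9% and 23.6% in SW480.

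Of the relatives of the 9 genes, 15 were tested in HCT116, and after BRD8 depletion 0 rose and 5 fell, where 24.4% of all genes were called in either direction. PLK4, the kinase that starts centriole duplication, changed by -1.22 ± 0.0805 (adjusted p = 0.0125), PLK1, the main mitotic polo-like kinase, by -0.71 ± 0.0507 (adjusted p = 0.000254) and CCNG2, encoding cyclin G2, by -0.73 ± 0.0755 (adjusted p = 5.48e-06). With TIP60 depletion in HCT116, 2 relatives rose and 8 fell, against 27.9% of all genes called, and in SW480 2 of 16 rose and 4 fell with each target, against 26.9% for BRD8 and 23.6% for TIP60. Since BTG2 and PLK3 are also immediate-early genes, 22 others of that class were read: 6 rose and 6 fell with BRD8 depletion and 7 rose and 3 fell with TIP60 depletion in HCT116, and 1 rose and 6 fell, and 8 rose and 2 fell, in SW480. MYC rose with TIP60 depletion in HCT116 by 1.80 ± 0.0568 (adjusted p = 2.65e-13) and EGR1 fell with BRD8 depletion (-0.85 ± 0.0766, adjusted p = 2.47e-06).

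Targets of ATF4, which also induces GDF15, fell in most cases in both lines. With BRD8 depletion none of 20 rose and 14 fell in HCT116 (median -1.47), and none of 21 rose and 14 fell in SW480 (median -0.63). With TIP60 depletion 1 rose and 16 of 20 fell in HCT116 (median -0.98), and 1 rose and 14 of 21 fell in SW480 (median -0.47). Among all genes tested, 24.4% were called for BRD8 in HCT116 and 26.9% in SW480, and for TIP60 27.9% and 23.6%. DDIT3, the stress factor CHOP, was 27.3 ± 3.5 CPM with siTIP60-2 and 10.9 ± 0.417 CPM with siTIP60-11, against 74.9 ± 5.12 CPM in HCT116 control (-2.14 ± 0.0788, adjusted p = 4.1e-10). GDF15 stood above control with siTIP60-2 in HCT116 in the same libraries in which DDIT3 stood below it, and with siTIP60-11 both stood below it. The part of ATF4 in the GDF15 levels was not tested. In SW480 DDIT3 was 187 ± 4.33 CPM with siTIP60-2 and 129 ± 1.68 CPM with siTIP60-11, against 369 ± 0.879 CPM in control (-1.26 ± 0.0512, adjusted p = 1.57e-12).

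The genes whose pattern over the 10 group means was most like that of a member were sought among 10135 protein-coding genes, with the mean of each line taken off. For CDKN1A they were ZNF607 (correlation 0.98), C16orf70 (0.93) and MRPS31 (0.92). ZNF607 was 7.71 ± 0.487, 12 ± 1.04, 9.94 ± 0.655 and 10.1 ± 0.052 CPM with siBRD8-6, siBRD8-36, siTIP60-2 and siTIP60-11, against 6.56 ± 0.744 CPM in HCT116 control. For MDM2 they were MPP5 (0.98), COPG1 (0.96) and ZNF561 (0.94), and COPG1, a coat protein gene of Golgi vesicles, was 322 ± 7.95 CPM with siBRD8-36 and 158 ± 1.7 CPM with siTIP60-11, against 231 ± 5.79 CPM in HCT116 control. NAGPA (0.96), IGHMBP2 (0.95) and CDV3 (0.94) were most like PLK2, and ACBD6 (0.92) and SLC31A1 (0.87) were among those most like GDF15. No test accompanies these correlations, whose points share libraries and controls.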

How the data were processed

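RNA was measured by sequencing in 30 libraries, built from 100 ng of total RNA with a directional kit and read as single ends of 60 bases, per the labels' protocols. The deposited values used are estimated counts and TPM per gene; Trimmomatic 0.33, STAR 2.7.3a, RSEM 1.3.3 and hg38 are named in the submitters' processing notes, while no source used here gives the annotation release or the strand setting. Of the 60617 identifiers, 58444 are in GENCODE release 29, which gave the coordinates. Expected counts, of which 9.13% to 13.1% per library were not whole, were rounded, which moved a member's count by at most 0.49.

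edgeR 4.0.16 (R 4.3.3; TMM, filterByExpr, robust quasi-likelihood test) was fitted per line on 15 libraries, and on all 30 for the difference between lines and between the controls. P-values were adjusted over all genes tested by the Benjamini-Hochberg method, two-sided. The members and lists were chosen with earlier results of these data known. The genes named were every member, BRD8 and KAT5, up to 3 called genes of each other list with the largest mean change per comparison, of which some are described, the overlapping genes, and the 3 genes most like CDKN1A, MDM2, PLK2 and GDF15. Of these last, 1 is not reported here. Motifs were chosen with the MDM2 sites known. Alternatives were RLE and upper-quartile scaling, DESeq2 1.42.0, no filter, a stricter filter, limma 3.58.1 on log2(TPM + 1), other sets of libraries in the fit, a replicate block and leaving out each library. The test was checked on simulated counts. No pair of replicates was identical, and in each of the 30 pairs the chi-square per gene (1.47 to 21.3) exceeded sampling noise. The highest values, 15.9 and 21.3, were those of HCT116 control replicate 2 with the other controls of that line. Those other controls gave 3.72 with each other, and no pair of another group exceeded 9.56.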

Additional observations from a re-analysis of the deposited data

Results flagged for a closer look

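These results are listed because the change in HCT116 differed from that in SW480 by the test of the difference itself (log2 difference, edgeR's quasi-likelihood test with Benjamini-Hochberg adjustment). For BRD8 depletion they were PLK2 (1.63), CDKN1A (1.31), MDM2 (0.97), PLK3 (0.76), BTG2 (0.43) and PPM1D (0.41), with adjusted p-values of 4.12e-17, 1.13e-14, 1.86e-07, 7.17e-06, 0.00515 and 0.0164 in that order. For TIP60 depletion they were PLK2 (1.68), CDKN1A (1.39), GDF15 (0.74), PLK3 (0.63), MDM2 (0.59) and BTG2 (0.54), with adjusted p-values of 9.9e-18, 3.57e-15, 2.39e-05, 8.18e-05, 0.000451 and 0.000666. All 12 differences are positive, which need not mean a rise called in HCT116. With TIP60 depletion the mean changes in HCT116 and SW480 were -0.23 and -0.85 for MDM2 and -0.27 and -1.05 for GDF15. With BRD8 depletion they were 0.05 and -0.43 for PPM1D and 0.18 and -0.65 for PLK3. For PLK2, CDKN1A, BTG2 and PLK3 all 4 siRNAs raised the gene in HCT116. In HCT116 the TIP60 siRNAs had opposite signs for GDF15 and MDM2, and the BRD8 siRNAs for PPM1D (-0.22 and 0.32). The mean of such a pair describes neither siRNA. In SW480 the BRD8 siRNAs differed in sign for CDKN1A (-0.41 and 0.08). Cell line and p53 status cannot be told apart here.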

How the results depend on the processing

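Among SW480 libraries the fewest counts were 57 for PPM1D, 61 for PLK3 and 75 for BTG2, which limits the precision of their values. On log2(TPM + 1) with limma, the genes called in HCT116 numbered 2313 for BRD8 and 2722 for TIP60, against 3891 and 4436, and members called numbered 3 for BRD8 in SW480, 5 between the BRD8 siRNAs in HCT116 and 3 in SW480, against 6, 8 and 6; the cause was not tested. That scale moved the median of all genes in SW480 to 0.22 for BRD8 and 0.18 for TIP60, and turned the sign of CDKN1A for BRD8 (0.10) and TIP60 (0.21) and of PLK3 for TIP60 (0.05) in SW480, of PPM1D between targets in HCT116 (0.03), of PLK3 (0.08) and MDM4 (0.05) between the BRD8 siRNAs in HCT116, of CDKN1A (-0.10) and PLK3 (0.03) between the TIP60 siRNAs in SW480, of PPM1D in the TIP60 line difference (-0.18) and of CCNG1 between controls (0.06). Of the results for single genes whose sign it kept, 21 lost a call, 4 gained one and 82 stayed the same. Likeness on that scale was 0.78 for ZNF607, 0.90 for C16orf70, 0.82 for MRPS31, 0.88 for MPP5, 0.97 for COPG1, 0.84 for ZNF561, 0.81 for IGHMBP2, 0.86 for CDV3 and 0.82 for ACBD6. Upper-quartile scaling turned CDKN1A for TIP60 in SW480 (0.02) and PLK3 between the BRD8 siRNAs in HCT116 (0.05), and 1 fit of all libraries turned the first (0.01). The CCNG1 line difference for BRD8 became 0.05 with RLE scaling, 0.01 with upper-quartile scaling, 0.05 with DESeq2, 0.08 without a filter and 0.08 with a stricter one. Of 2160 values recomputed without 1 library, 24 lost a call, in 9 results, and 16 gained one, in 11 results. Signs turned within the ranges -0.10 to 0.11 (CCNG1 line difference for BRD8), -0.05 to 0.09 (PPM1D for TIP60 in SW480), -0.05 to 0.10 (PPM1D line difference for TIP60), -0.06 to 0.01 (PPM1D between targets in HCT116), -0.04 to 0.05 (PLK3 between BRD8 siRNAs in HCT116), -0.01 to 0.08 (MDM4) and 0 to 0.05 (CCNG1) between targets in SW480, and -0.15 to 0.01 (PLK3) and 0 to 0.09 (CDKN1A) between TIP60 siRNAs in SW480.

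The replicate numbers did not clearly pair the samples. Deviations of same-numbered libraries correlated from -0.049 to 0.18 in HCT116 (median 0.056) and from -0.14 to 0.18 in SW480 (median -0.0026). Those of different-numbered libraries correlated from -0.21 to 0.18 (median -0.032) and from -0.12 to 0.22 (median -0.0018). A weak pairing in HCT116 was not excluded. A replicate block called 4069 and 4668 genes for BRD8 and TIP60 in HCT116 and 3941 and 3459 in SW480, with 6, 5, 6 and 3 of the 9 genes, and changed no call among 117 results.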
